A study of Callithrix jacchus with 5 samples.

Results

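One fibroblast library of a small New World monkey, the common marmoset (Callithrix jacchus), E01F_Fibroblast_P1, was set against 3 embryonic stem (ES) cell lines of the same species, No40_ES_P63, DSY127_ES_P17 and No20_ES_P45, across every gene of the deposited count table. These are 4 of the 5 libraries of the series, picked by their titles and cell type labels. The fifth library, from induced pluripotent stem (iPS) cells, entered the shared fit and no contrast. By its title, the study made iPS cells from marmoset fibroblasts by RNA-based reprogramming. Cell type is the one property the labels give for each group. Genotype, treatment, culture condition, animal, age and tissue of origin are not given in the labels used here, and the P numbers of the titles, 1 for the fibroblasts and 63, 17 and 45 for the ES lines, are not explained there.

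Reads assigned to genes summed to 58601185 in the fibroblast library and to 46523012, 34111715 and 40825547 in No40, DSY127 and No20. With 1 fibroblast library, the spread behind every test came from the 3 ES lines alone (2 residual degrees of freedom), and the fibroblast library is assumed to vary as they do. No label says that the ES lines came from separate animals, so p-values measure the spread between these libraries. The 10 most abundant genes took 10.001% of the fibroblast counts and 4.21% to 4.59% of the ES counts. TMM factors, which correct library size for such imbalance, were 0.813 for the fibroblasts and 1.05 to 1.07 for the ES lines. The labels were checked on 4 genes. POU5F1 and NANOG, transcription factors of pluripotency, were read first. POU5F1 stood at 1.64 CPM in fibroblasts and 1409.6, 1732 and 1132 CPM in the ES lines and NANOG at 0.357 CPM in fibroblasts and 462, 561 and 523 CPM in the ES lines. Of the chains of type I collagen, COL1A1 was at 32522 CPM in fibroblasts and 1213, 518 and 854 CPM in the ES lines and COL1A2 at 19644 CPM in fibroblasts and 263, 259 and 228 CPM in the ES lines. The fibroblast library was below every ES line for the first pair and above every ES line for the second.

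Fibroblasts are the connective tissue cells that build and remodel matrix, and in culture they are known for integrin adhesion, TGF-beta responses and contractile stress fibres. Primate ES cells grow as tight epithelial colonies joined by E-cadherin and are known to depend on NODAL or activin and on FGF to stay undifferentiated. The genes below are those through which each cell type talks to its surroundings: secreted ligands and their antagonists, receptors, proteases, adhesion molecules, surface sugars and channels.

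Levels are in CPM, read counts relative to TMM-scaled library size. Below, a level is given as the fibroblast library against the ES lines, which stand in the order No40, DSY127, No20. A log2 fold change is fibroblasts over ES lines from edgeR's quasi-likelihood test, given ± its standard error, and a gene is said to have risen or fallen in fibroblasts where the Benjamini-Hochberg adjusted p over all tested genes was under 0.05. Of 17462 genes tested, 1537 (8.80%) rose and 1620 (9.28%) fell. Changes of 4-fold or more made up 1126 of the rises and 1522 of the falls. The median log2 fold change over all tested genes was -0.15, and scaling by total counts alone or by upper quartiles shifted it by -0.38 and -0.26. The calls leaned further down with total counts alone, at 1066 risen and 2016 fallen genes, and further up with limma voom, at 1674 and 1009. Without No40, 924 rose and 818 fell. Without No20, 2184 rose and 2366 fell, and with DESeq2 2044 and 2703. Upper-quartile scaling gave 1201 and 1859, and no low-count filter 1761 and 2002. List counts under an alternative, given below, are to be read against these totals. Where a gene had no count in one group, the fold is a bound against 3 counts, set in the fibroblast library or over the 3 ES lines together, and where it had 1 to 3 counts the ratio carries an exact 95% Poisson interval. Bounds and intervals cover counting error only. By this test 9 of 10 tested fibroblast markers rose, PDGFRB being the exception, and 6 of 6 pluripotency markers fell. In RNA from whole cultures, fewer cells of a type and less RNA per cell cannot be told apart.

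Outside the pathway lists, and leaving out collagens and genes that earlier results of these data had named, the largest rises among genes at 50 CPM or more included those of 4 genes of secreted proteins, ISLR, PTX3, FBN2 and THBS2, and of 2 genes of transcription factors, ATOH8 and OSR1. ISLR, a secreted immunoglobulin-domain protein of mesenchymal cells, stood at 86.8 CPM against 0.325, 0.278 and 0.663 CPM (log2 fold change 7.67 ± 0.59, adjusted p = 0.00150). PTX3, a secreted pentraxin of innate immunity, was at 177 CPM against 0.833, 0.695 and 1.65 CPM (log2 fold change 7.38 ± 0.54, adjusted p = 0.00143). ATOH8, a helix-loop-helix transcription factor, stood at 91.3 CPM against 0.163, 0.417 and 0.800 CPM (log2 fold change 7.63 ± 0.75, adjusted p = 0.00238). OSR1, a zinc finger factor of embryonic mesenchyme, was at 84.2 CPM against 0.752, 0.361 and 1.01 CPM (log2 fold change 6.88 ± 0.58, adjusted p = 0.00172). ISLR, PTX3, ATOH8 and OSR1 were each under 2 CPM in all 3 ES lines. FBN2, a microfibril protein, reached 1441 CPM against 13.8, 15.9 and 35.3 CPM (log2 fold change 6.05 ± 0.54, adjusted p = 0.00199), and THBS2, a matricellular thrombospondin, reached 662 CPM against 8.84, 15.96 and 2.61 CPM (log2 fold change 6.18 ± 0.79, adjusted p = 0.00476). MYOCD, a coactivator of smooth muscle genes, stood at 89.0 CPM against 1.12, 0.445 and 2.24 CPM (log2 fold change 6.12 ± 0.76, adjusted p = 0.00425). The monoamine oxidase MAOB, on the X chromosome, was at 102 CPM against 1.10, 1.11 and 1.44 CPM (log2 fold change 6.38 ± 0.42, adjusted p = 0.00123). The other members of the 15 largest rises were ADAMTSL3, CCN4, MEDAG, APBA1, SLC9A9, RASGRP3 and ATP8B1, with log2 fold changes of 6.22 to 7.32. In all 15 the fibroblast library lay above the 3 ES lines.

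The largest falls outside the lists included genes of a gut hormone, of an epithelial protease and a protease inhibitor, and of transcription factors. PYY, the gene of peptide YY, an enteroendocrine hormone (chromosome 5, 76328143 to 76329387 in the files' coordinates), stood at 0.105 CPM against 192, 189 and 311 CPM (log2 fold change -11.05 ± 0.80, adjusted p = 0.00143). The fibroblast library held 5 reads of it, and the ES lines lay within 2-fold of each other. ST14, the epithelial membrane protease matriptase, and SPINT2, a Kunitz inhibitor of such proteases, fell together. ST14 was at 0.105 CPM against 79.3, 169.6 and 54.1 CPM (log2 fold change -9.86 ± 1.17, adjusted p = 0.00385) and SPINT2 at 0.168 CPM against 177, 253 and 154 CPM (log2 fold change -10.15 ± 0.73, adjusted p = 0.00143). Transcription factors of undifferentiated cells fell as well: UTF1 stood at 0.105 CPM against 101, 124 and 68.1 CPM and ZSCAN10 at 0.357 CPM against 161, 164 and 151 CPM, with log2 fold changes of -9.82 and -8.78. FOLR1, a folate receptor, was at 0.756 CPM against 188, 327 and 228 CPM (log2 fold change -8.35 ± 0.68, adjusted p = 0.00158), and CLDN3, a tight junction claudin, at 0.126 CPM against 41.9, 74.8 and 53.1 CPM (log2 fold change -8.77 ± 0.78, adjusted p = 0.00199). The ES lines differed in SOHLH2, a germ cell transcription factor, which stood at 0.0420 CPM against 11.8, 112 and 86.7 CPM, a ratio of ES to fibroblasts of 1671 (95% interval 463 to 13798), adjusted p = 0.0157. ARHGEF16, a guanine nucleotide exchange factor, had 1 read in fibroblasts and 52.5 to 71.5 CPM in the ES lines, a ratio of 3067 (95% interval 550.4 to 121126). MAP7, PRKCZ, SLC34A2, CFAP45 and LARGE2 fell with log2 fold changes of -9.25 to -8.25, and in each gene named here the fibroblast library lay below every ES line. SOHLH2 did not pass with limma voom.

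**Figure D1:**
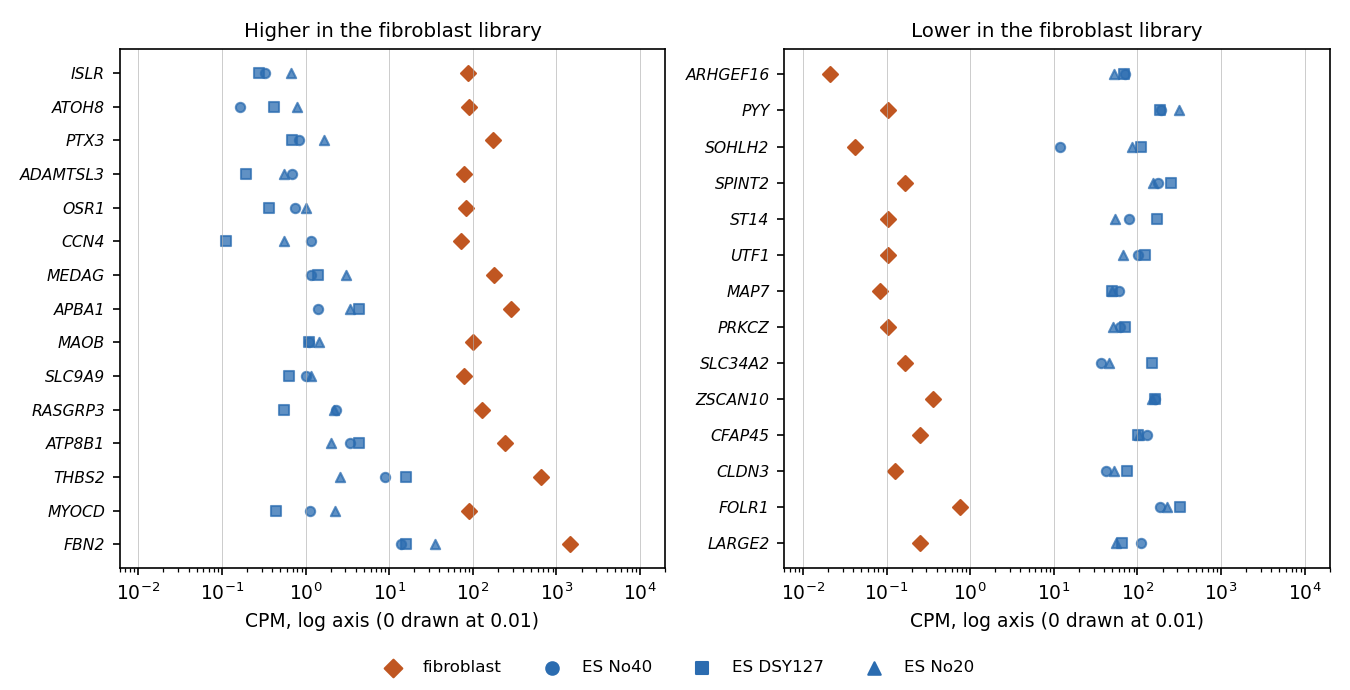
CPM on a log axis of the 15 genes outside the pathway lists with the largest rises (left) and of 14 of the 15 with the largest falls (right) in fibroblasts; diamonds mark the fibroblast library and circles, squares and triangles the ES lines No40, DSY127 and No20. On the left every diamond lies to the right of all 3 ES symbols, and on the right every diamond lies to the left; the ES lines lie furthest apart in CCN4 among the rises and in SOHLH2 among the falls, the latter from 11.8 CPM in No40 to 112 CPM in DSY127.

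Members of 26 lists of pathway, secreted and surface genes were described. Of the listed genes, 964 of 1326 distinct genes, markers included, could be matched to a symbol. The share of tested members that rose was highest for mesenchymal surface antigens (15 of 31), lysosomal proteins (11 of 22) and the insulin-like growth factor system (5 of 11), against 8.80% of all tested genes. The share that fell was highest for enzymes of cell surface glycan synthesis (11 of 32), complement (6 of 20) and ion channels (23 of 83), against 9.28% of all genes. Medians ran from -2.96 (-2.05 with genes at 0 set to their bound) for Notch signalling to 2.30 for mesenchymal surface antigens. Counts and medians of lists stand as description, and 18.1% of all tested genes were called in either direction. Each list also held members that moved against its majority or did not pass, as the plot of list members shows.

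**Figure D2:**
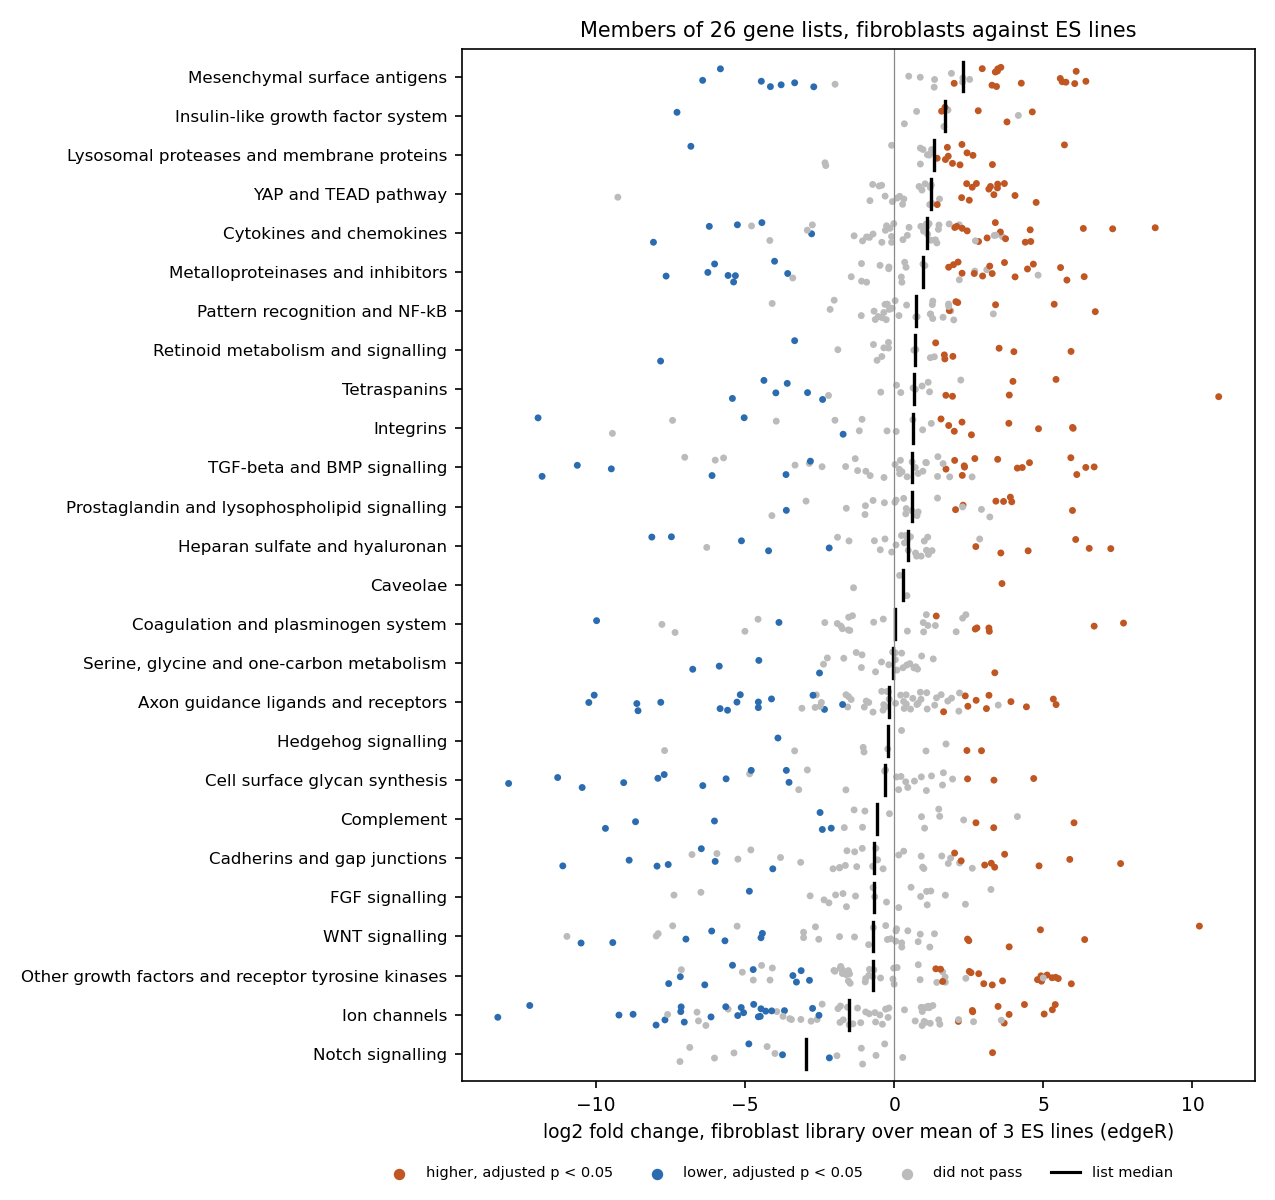
Log2 fold change, fibroblast library over the mean of the 3 ES lines, of every tested member of the 26 lists, ordered by list median (black bar); orange points rose, blue points fell and grey points did not pass. Mesenchymal surface antigens lie furthest to the right by median and Notch signalling furthest to the left.

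Ligands of the TGF-beta family are secreted, held by latent binding proteins and antagonists, and read by paired receptor kinases. Among the ligands 5 rose, 3 fell and 9 did not pass, and NODAL, GDF3 and BMP7 were the ones that fell. NODAL, the ligand that maintains pluripotency and patterns the embryo, was at 0.0840 CPM against 32.1, 61.7 and 94.0 CPM (log2 fold change -9.48 ± 1.09, adjusted p = 0.00347). GDF3, a relative of NODAL, stood at 0.189 CPM against 185, 681 and 45.3 CPM (log2 fold change -10.62 ± 2.23, adjusted p = 0.0214), and BMP7 at 0.651 CPM against 40.0, 66.5 and 28.9 CPM (log2 fold change -6.11 ± 0.80, adjusted p = 0.00503). All 3 were lower in fibroblasts than in any ES line, although the ES lines themselves differed for GDF3 by more than 10-fold. TGFB1, the main TGF-beta ligand of wound repair, was at 209 CPM against 10.5, 7.31 and 18.0 CPM (log2 fold change 4.13 ± 0.49, adjusted p = 0.00390), and TGFB3 at 49.5 CPM against 11.6, 7.73 and 11.2 CPM (log2 fold change 2.28 ± 0.42, adjusted p = 0.0140). TGFB2, INHBA, which encodes an activin subunit, and MSTN, the muscle growth inhibitor myostatin, rose as well, with log2 fold changes of 3.47, 1.74 and 5.92. MSTN stood at 153 CPM against 7.01, 0.111 and 0.366 CPM, so that No40 lay far above the other ES lines and far below the fibroblasts. GDF3 and INHBA did not pass with limma voom. GDF3, TGFB2 and INHBA did not pass without No40 (adjusted p = 0.0711 to 0.147). TGFB2, INHBA and MSTN did not pass with upper-quartile scaling and with total-count scaling. MSTN did not pass with DESeq2.

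Among secreted modulators of the family 4 rose, 2 fell and 8 did not pass. LTBP2 and LTBP3, of the latent TGF-beta binding protein family, rose while LTBP4, of the same family, fell. LTBP2 was at 88.1 CPM against 3.27, 2.98 and 5.12 CPM (log2 fold change 4.54 ± 0.45, adjusted p = 0.00251) and LTBP4 at 8.88 CPM against 91.0, 45.4 and 50.3 CPM (log2 fold change -2.81 ± 0.60, adjusted p = 0.0222). BMPER, a secreted regulator of BMP, stood at 102 CPM against 0.467, 2.39 and 0.732 CPM (log2 fold change 6.42 ± 0.82, adjusted p = 0.00470), and BMP1, a procollagen protease, at 176 CPM against 20.9, 22.7 and 37.6 CPM (log2 fold change 2.70 ± 0.40, adjusted p = 0.00753). CER1, the NODAL and BMP antagonist Cerberus, was at 0.0420 CPM against 71.5, 23.8 and 393 CPM, a ratio of ES to fibroblasts of 3872 (95% interval 1072 to 31968), adjusted p = 0.0261. The fibroblast library held 2 reads of it, and No20 held more than 5 times the level of No40. FSTL1, a follistatin-like secreted protein, was at 2513 CPM against 1201, 1375 and 994 CPM and did not pass (adjusted p = 0.0600). LTBP1 stood at 1080.3 CPM against 539, 194 and 307 CPM and did not pass either (adjusted p = 0.0723). The fibroblast library was above every ES line for both. LTBP3 and CER1 did not pass without No40 (adjusted p = 0.0687 to 0.0752). CER1 did not pass with limma voom.

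Of the receptors 3 rose, 1 fell and 11 did not pass. TGFBR2, the receptor that binds TGF-beta itself (chromosome 17, 61267572 to 61353882), was at 238 CPM against 4.18, 1.67 and 4.34 CPM (log2 fold change 6.12 ± 0.54, adjusted p = 0.00199). TGFBR1, its signalling partner, stood at 60.0 CPM against 48.8, 27.2 and 42.4 CPM and did not pass (log2 fold change 0.60 ± 0.43, adjusted p = 0.369). The fibroblast library was thus far above all ES lines for one subunit of the pair and slightly above them for the other. The co-receptors ENG and TGFBR3 rose, with log2 fold changes of 2.36 and 2.03, and ACVR2B, a receptor for activin and NODAL, fell with -3.63. BMPR1A, a type I receptor for BMPs, was at 160.3 CPM against 117, 124 and 115 CPM and did not pass (log2 fold change 0.43 ± 0.32, adjusted p = 0.377). ACVR1, another, stood at 87.5 CPM against 65.5, 66.4 and 87.0 CPM and did not pass (log2 fold change 0.26 ± 0.36, adjusted p = 0.644). Among targets of the pathway, TGFBI, a matrix protein named for its induction by TGF-beta, was at 1405 CPM against 62.8, 18.7 and 133 CPM (log2 fold change 4.29 ± 0.82, adjusted p = 0.0161). SKIL, another target, stood at 71.2 CPM against 399, 119 and 143 CPM and did not pass. Over all 49 tested members 14 rose, 6 fell and 29 did not pass, with a median log2 fold change of 0.60. TGF-beta family genes that rose and fell numbered 11 and 3 without No40 and 13 and 3 with limma voom. TGF-beta family ligand genes that rose and fell numbered 3 and 2 without No40, 5 and 5 without No20, 4 and 5 with DESeq2, 2 and 4 with total-count scaling and 2 and 4 with upper-quartile scaling. TGF-beta family receptor genes that rose and fell numbered 6 and 1 without No20 and 5 and 1 with DESeq2. ENG, ACVR2B and TGFBI did not pass without No40 (adjusted p = 0.0670 to 0.0868). ACVR2B did not pass with limma voom.

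YAP and TAZ are transcription coactivators that act with TEAD factors and are known to respond to cell spreading and stiffness. Among their listed targets 13 rose, 0 fell and 5 did not pass, at a median of 2.57, while 2 rose, 0 fell and 14 did not pass among the regulators, at a median of 0.23 (-0.15 with total-count scaling, -0.03 with upper-quartile scaling). CCN1, a secreted matricellular protein, was at 1349 CPM against 154, 211 and 295 CPM (log2 fold change 2.62 ± 0.39, adjusted p = 0.00730). CRIM1, a membrane protein with BMP-binding repeats, stood at 959.7 CPM against 57.2, 70.9 and 45.6 CPM (log2 fold change 4.05 ± 0.34, adjusted p = 0.00171), and DLC1, a GTPase-activating protein, at 343 CPM against 13.1, 11.5 and 13.4 CPM (log2 fold change 4.76 ± 0.31, adjusted p = 0.00123). Each lay above all ES lines, as did 16 of the 18 tested targets (35.4% of all tested genes did). MYOF, ANKRD1, AMOTL2 and RBMS3 rose with log2 fold changes of 3.23, 3.34, 2.43 and 3.70. Of the coactivators, WWTR1, which encodes TAZ, was at 59.8 CPM against 10.1, 7.42 and 9.06 CPM (log2 fold change 2.76 ± 0.41, adjusted p = 0.00711), and YAP1 stood at 116 CPM against 136, 66.7 and 161 CPM (log2 fold change -0.06 ± 0.52, adjusted p = 0.94998). YAP1 in fibroblasts lay within the range of the ES lines and WWTR1 above it. TEAD1, TEAD2, TEAD3 and TEAD4 did not pass, with log2 fold changes of 1.52, -0.42, 1.24 and 0.28. LATS2, an inhibitory kinase of the pathway that is also a target, rose to 171 CPM against 45.1, 27.7 and 34.4 CPM, and AXL, NT5E, F3 and TGFB2, counted here as targets that rose, belong to other lists too. YAP regulator genes that rose and fell numbered 4 and 1 with DESeq2. TGFB2 did not pass with upper-quartile scaling, with total-count scaling and without No40 (adjusted p = 0.147 without No40).

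**Figure D3:**
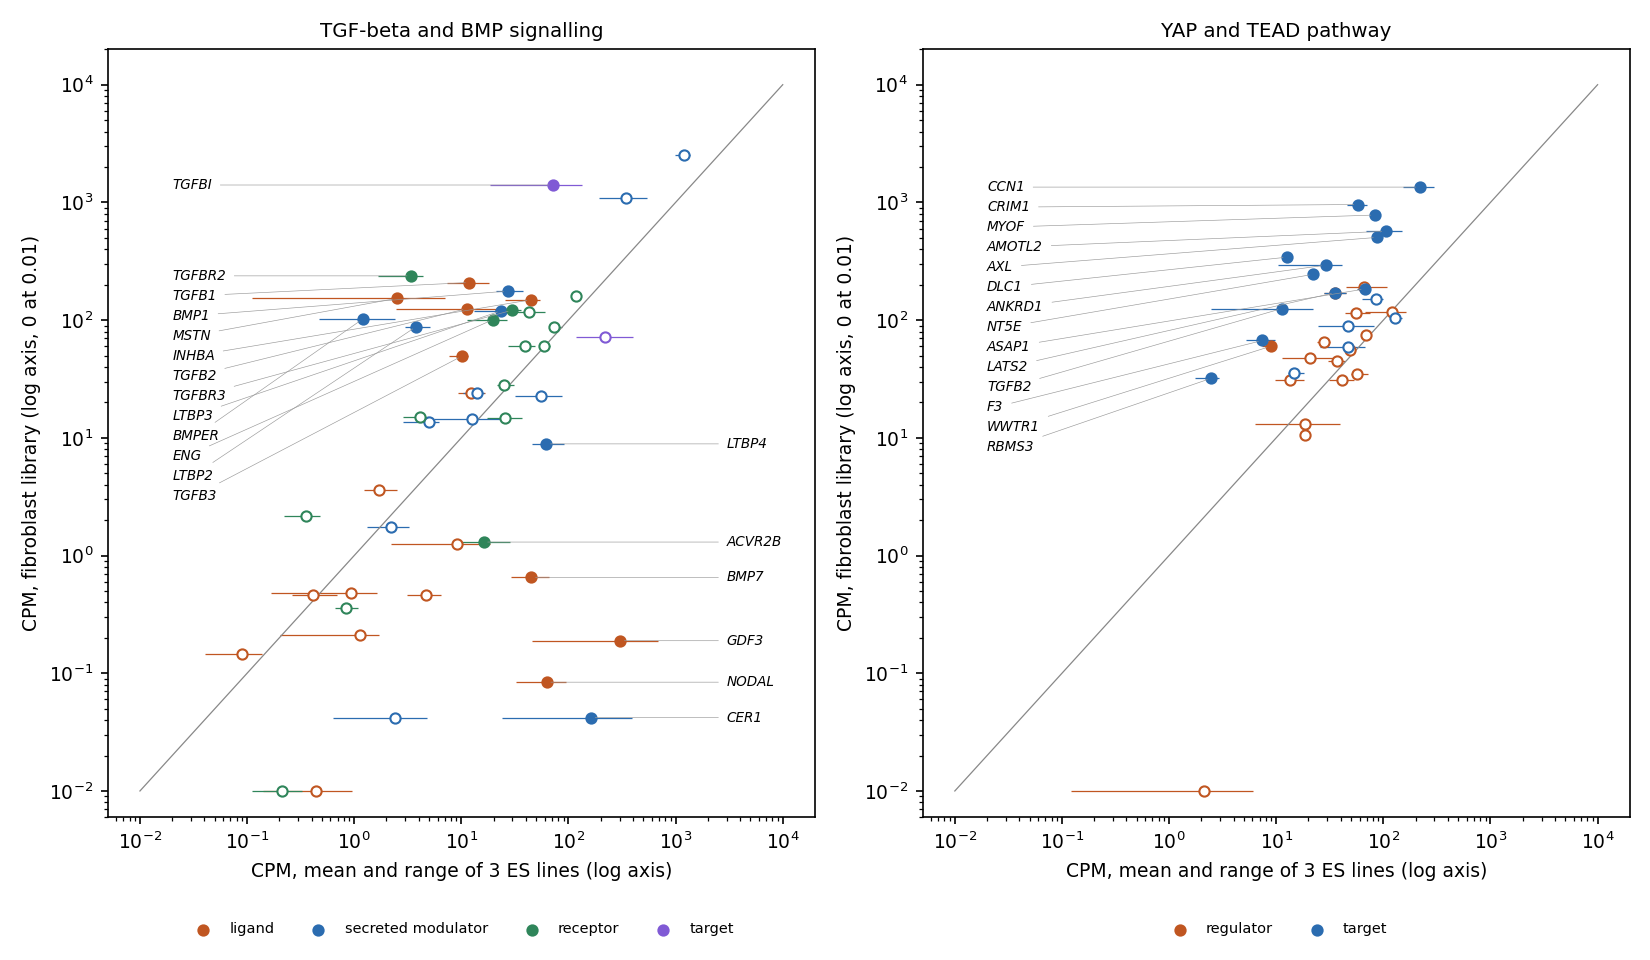
CPM in the fibroblast library (vertical log axis) against the mean CPM of the 3 ES lines (horizontal log axis, with a bar over their range) for TGF-beta family genes (left) and YAP and TEAD genes (right), coloured by role; filled points passed the test, open points did not, and a level of 0 is drawn at 0.01. TGFBR2 lies far above the diagonal of equal level and NODAL, GDF3 and CER1 lie far below it on the left, and the YAP targets that passed all lie above it on the right.

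WNT proteins are lipid-modified ligands that act through Frizzled and LRP receptors, and R-spondins and LGR receptors amplify them. Among the ligands 3 rose, 1 fell and 7 did not pass, among the receptors 2 rose, 1 fell and 11 did not pass, and among the secreted modulators 1 rose, 4 fell and 5 did not pass. WNT2, a ligand known from mesenchyme of the lung, was at 369.8 CPM against 0.427, 0.445 and 0.0457 CPM (log2 fold change 10.23 ± 0.82, adjusted p = 0.00158). WNT11, a ligand of the planar polarity branch, stood at 212 CPM against 2.28, 4.17 and 1.19 CPM (log2 fold change 6.39 ± 0.62, adjusted p = 0.00237), and WNT5A, of the same branch, at 74.95 CPM against 9.04, 8.12 and 22.5 CPM (log2 fold change 2.503 ± 0.59, adjusted p = 0.0317). WNT8A, an embryonic ligand, had no count in fibroblasts and 0.995, 7.31 and 6.56 CPM in the ES lines, at least 78.7-fold lower (adjusted p = 0.0263). Fibroblasts were above every ES line for the first 3 ligands and below every one for WNT8A. DKK3, of the Dickkopf family of antagonists, rose, at 315 CPM against 54.2, 79.1 and 38.6 CPM (log2 fold change 2.46 ± 0.42, adjusted p = 0.0110). SFRP2, a decoy receptor, fell, at 23.6 CPM against 618, 465 and 435 CPM (log2 fold change -4.42 ± 0.47, adjusted p = 0.00289). By CPM per kb it was the most abundant in each ES line of the WNT modulators matched to a symbol, 10 of 17 listed. SFRP5, SOSTDC1 and RSPO4 fell too, each under 1 CPM in fibroblasts. LGR5, a receptor for R-spondins, was at 157 CPM against 5.32, 3.31 and 7.11 CPM (log2 fold change 4.90 ± 0.47, adjusted p = 0.00222). KREMEN1, a co-receptor for DKK proteins, stood at 91.3 CPM against 7.27, 3.64 and 7.98 CPM (log2 fold change 3.86 ± 0.50, adjusted p = 0.00489), and FZD5, a Frizzled receptor, at 3.21 CPM against 349, 70.9 and 72.3 CPM (log2 fold change -5.67 ± 1.33, adjusted p = 0.0306). For FZD5 the No40 line lay far above the other ES lines, and fibroblasts lay below all. LRP5, a WNT co-receptor, was at 327 CPM against 155, 240.1 and 168 CPM and did not pass (log2 fold change 0.80 ± 0.37). LGR4, another R-spondin receptor, stood at 176 CPM against 119.9, 65.5 and 102 CPM and did not pass (log2 fold change 0.87 ± 0.41). SP5, a direct WNT target, had no count in fibroblasts and 0.528, 3.36 and 3.22 CPM in the ES lines, at least 37.7-fold lower (adjusted p = 0.0347). Over 39 tested members 6 rose, 7 fell and 26 did not pass, at a median of -0.70. WNT genes that rose and fell numbered 6 and 12 without No20, 6 and 12 with DESeq2 and 6 and 4 with limma voom. WNT5A did not pass with total-count scaling. WNT5A and RSPO4 did not pass without No40 (adjusted p = 0.0529 to 0.102). WNT8A, FZD5 and SP5 did not pass with limma voom.

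Among other growth factors 9 rose, 4 fell and 17 did not pass, and among receptor tyrosine kinases and their co-receptors 8 rose, 5 fell and 19 did not pass. EGFR, the receptor for EGF and its relatives, was at 125 CPM against 3.84, 3.67 and 4.82 CPM (log2 fold change 4.92 ± 0.38, adjusted p = 0.00153). Its ligands HBEGF and EPGN rose too, to 9.72 and 4.96 CPM, with log2 fold changes of 3.003 and 5.42. ERBB2, a sister receptor, stood at 174 CPM against 409, 459.6 and 152 CPM and did not pass (log2 fold change -0.97 ± 0.64, adjusted p = 0.329). The fibroblast level of ERBB2 lay within the range of the ES lines, while that of EGFR lay above it. GFRA1, the co-receptor for the neurotrophic ligand GDNF, was at 249 CPM against 4.96, 6.98 and 7.09 CPM (log2 fold change 5.29 ± 0.36, adjusted p = 0.00142), and GDNF itself at 15.6 CPM against 0.406, 0.361 and 0.252 CPM (log2 fold change 5.50 ± 0.61, adjusted p = 0.00313). Ligand and co-receptor were thus higher in fibroblasts than in any ES line. RET, the kinase that signals for the pair, stood at 0.315 CPM against 7.15, 12.2 and 1.46 CPM and did not pass (log2 fold change -4.45 ± 1.42, adjusted p = 0.0757). DDR2, a collagen receptor kinase, was at 304 CPM against 5.69, 2.78 and 6.38 CPM (log2 fold change 5.94 ± 0.48, adjusted p = 0.00158). Receptor kinase and co-receptor genes that rose and fell numbered 5 and 4 without No40, 8 and 8 without No20, 8 and 11 with DESeq2, 9 and 3 with limma voom, 6 and 8 with total-count scaling and 8 and 8 with no low-count filter. HBEGF did not pass without No40 (adjusted p = 0.0658).

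AXL, TYRO3 and MERTK, the receptors for GAS6 and protein S, moved apart. AXL stood at 505 CPM against 87.8, 90.8 and 85.7 CPM (log2 fold change 2.52 ± 0.29, adjusted p = 0.00353) and its ligand GAS6 at 168 CPM against 14.1, 23.1 and 14.3 CPM (log2 fold change 3.29 ± 0.40, adjusted p = 0.00411). MERTK was at 0.168 CPM against 21.7, 13.9 and 6.31 CPM (log2 fold change -6.35 ± 1.12, adjusted p = 0.0124) and TYRO3 at 2.84 CPM against 29.2, 45.7 and 14.7 CPM (log2 fold change -3.40 ± 0.81, adjusted p = 0.0324). Fibroblasts exceeded every ES line for AXL and GAS6 and were below every ES line for MERTK and TYRO3. PDGFRA, the mesenchymal PDGF receptor, stood at 1106 CPM against 27.3, 30.6 and 60.7 CPM (log2 fold change 4.81 ± 0.47, adjusted p = 0.00238), and PDGFA, one of its ligands, at 4.26 CPM against 29.3, 54.4 and 27.5 CPM (log2 fold change -3.12 ± 0.64, adjusted p = 0.0203). PDGFRA was thus higher in fibroblasts and PDGFA higher in the ES lines. PDGFC, of the same ligand family, stood at 18.9 CPM per kb in fibroblasts against an ES mean of 5.80 CPM per kb and did not pass. In the VEGF family, VEGFA was at 176 CPM against 28.9, 38.3 and 21.5 CPM (log2 fold change 2.58 ± 0.39, adjusted p = 0.00754), and its main receptor KDR at 2.04 CPM against 85.2, 86.3 and 90.8 CPM (log2 fold change -5.42 ± 0.48, adjusted p = 0.00199). FLT4, a related receptor, fell by 4.73 on the log2 scale, and FLT1, another, stood at 89.7 CPM against 363, 189 and 208 CPM without passing (log2 fold change -1.50 ± 0.50, adjusted p = 0.0851). MDK and PTN, the heparin-binding factors midkine and pleiotrophin, both fell: MDK was at 48.5 CPM against 408, 566 and 438 CPM (log2 fold change -3.28 ± 0.43, adjusted p = 0.00503) and PTN at 20.7 CPM against 93.6, 126 and 226 CPM (log2 fold change -2.84 ± 0.63, adjusted p = 0.0261). KITLG, the stem cell factor that acts on KIT, rose to 36.2 CPM against 0.711, 0.973 and 1.85 CPM (log2 fold change 4.94 ± 0.63, adjusted p = 0.00468). Over all 62 tested members 17 rose, 9 fell and 36 did not pass, at a median of -0.70. Growth factor and receptor genes that rose and fell numbered 11 and 6 without No40, 18 and 17 with DESeq2 and 13 and 14 with total-count scaling. TYRO3 and MERTK did not pass with limma voom. TYRO3 and PDGFA did not pass without No40 (adjusted p = 0.0521 to 0.0905). FLT1 passed, as a fall, with DESeq2 and with total-count scaling.

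The insulin-like growth factor system rose in 5 of 11 tested members and fell in 1, at a median of 1.70. IGFBP6, a binding protein with preference for IGF2, stood at 159 CPM against 5.55, 4.28 and 9.40 CPM (log2 fold change 4.63 ± 0.48, adjusted p = 0.00273), and HTRA1, a secreted protease, at 668 CPM against 90.7, 122 and 71.1 CPM (log2 fold change 2.82 ± 0.36, adjusted p = 0.00485). IRS1, the adaptor below the receptors, rose with a log2 fold change of 1.70. IGF1R was at 222 CPM against 109, 29.4 and 52.0 CPM and did not pass (log2 fold change 1.80 ± 0.63, adjusted p = 0.0946): fibroblasts were above all 3 lines, but No40 held more than 3 times the level of DSY127. IGFBP2 stood at 3868 CPM against 2304, 2407 and 2181 CPM and did not pass (log2 fold change 0.75 ± 0.29, adjusted p = 0.119). By CPM per kb it led the secreted modulators matched to a symbol in every library, but these were 7 of 14 listed. IGFBPL1, a related secreted protein, had 1 read in fibroblasts and fell, at a ratio of ES to fibroblasts of 181 (95% interval 32.5 to 7142). Insulin-like growth factor genes that rose and fell numbered 8 and 1 without No20 and 8 and 1 with no low-count filter. IRS1 did not pass with upper-quartile scaling, with total-count scaling and without DSY127 (adjusted p = 0.0684 without DSY127). IRS1 and IGFBPL1 did not pass without No40 (adjusted p = 0.0793 to 0.0858). IGFBPL1 did not pass with limma voom. IGF1R passed, as a rise, with DESeq2, with no low-count filter, without No40 and without No20.

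FGF signalling had the smallest share of called members of the 26 lists: of 22 tested, 0 rose, 1 fell and 21 did not pass, at a median of -0.68, where 18.1% of all tested genes were called. FGFR2 was at 1.26 CPM against 45.9, 29.7 and 34.1 CPM (log2 fold change -4.86 ± 0.59, adjusted p = 0.00411), below all ES lines. FGFR1, the main receptor of both cell types, stood at 419 CPM against 639, 447 and 417 CPM and did not pass (log2 fold change -0.26 ± 0.38, adjusted p = 0.670), and its fibroblast level was close to that of No20. FGFR3 was at 10.6 CPM against 44.1, 78.8 and 22.4 CPM and FGFR4 at 23.2 CPM against 93.3, 55.2 and 62.4 CPM, both lower than in any ES line without passing (adjusted p = 0.0976 and 0.0608). Of the ETS factors that FGF is known to induce, ETV4 stood at 14.5 CPM against 39.1, 125 and 143 CPM and ETV5 at 125 CPM against 44.5, 60.8 and 69.4 CPM. ETV4 was below and ETV5 above every ES line, and neither passed. FGF genes that rose and fell numbered 4 and 4 without No20, 0 and 5 with DESeq2, 0 and 3 with total-count scaling, 0 and 3 with upper-quartile scaling and 1 and 3 with no low-count filter.

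In Hedgehog signalling 2 rose, 1 fell and 8 did not pass of 11, at a median of -0.22. The share called was 27.3%, against 18.1% of all tested genes. BOC, a co-receptor, was at 88.0 CPM against 14.1, 6.28 and 14.3 CPM (log2 fold change 2.93 ± 0.51, adjusted p = 0.0117), and GLI3, the pathway's main repressor, at 92.8 CPM against 23.3, 11.3 and 16.7 CPM (log2 fold change 2.44 ± 0.45, adjusted p = 0.0150). GLI1, a direct target, stood at 0.714 CPM against 13.8, 13.7 and 4.53 CPM (log2 fold change -3.90 ± 0.98, adjusted p = 0.0377). The receptor PTCH1 was at 12.1 CPM against 31.4, 27.4 and 15.5 CPM and the transducer SMO at 49.0 CPM against 43.4, 37.1 and 43.4 CPM, and neither passed. In fibroblasts the co-receptor and the repressor lay above every ES line and the target below every one. In Notch signalling 1 rose, 3 fell and 12 did not pass of 16, so that 25% were called against the same 18.1%. Of the 16, 12 lay below all 3 ES lines (39.0% of all tested genes did). Another 2 lay above all of them, and 2 within their range. NOTCH2, above them, rose, at 926 CPM against 137, 62.2 and 82.9 CPM (log2 fold change 3.30 ± 0.44, adjusted p = 0.00519). RFNG, a fringe enzyme that glycosylates the receptors, also lay above them, at 48.9 CPM against 42.7, 44.1 and 33.4 CPM, and did not pass. NOTCH1 stood at 18.7 CPM against 125, 45.3 and 41.7 CPM and NOTCH3 at 46.4 CPM against 111, 85.0 and 93.9 CPM, and neither passed. Of the ligands, DLL3 was at 0.966 CPM against 30.5, 34.0 and 20.8 CPM (log2 fold change -4.87 ± 0.66, adjusted p = 0.00540) and JAG2 at 6.45 CPM against 33.7, 34.4 and 19.2 CPM (log2 fold change -2.17 ± 0.59, adjusted p = 0.0475), and JAG1 stood at 39.7 CPM against 46.8, 55.6 and 46.2 CPM and did not pass. HES6, a helix-loop-helix factor, fell to 0.357 CPM against 4.61, 4.70 and 5.17 CPM (log2 fold change -3.74 ± 0.81, adjusted p = 0.0239). Hedgehog genes that rose and fell numbered 3 and 3 with DESeq2. Notch genes that rose and fell numbered 1 and 1 without No40, 1 and 8 without No20, 1 and 7 with DESeq2 and 1 and 5 with total-count scaling. GLI1 and JAG2 did not pass with limma voom. GLI1, JAG2 and HES6 did not pass without No40 (adjusted p = 0.0647 to 0.111). JAG2 did not pass without DSY127 (adjusted p = 0.103).

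Of 42 cytokine and chemokine receptors 13 rose, 3 fell and 26 did not pass, and of 15 ligands 2 rose, 2 fell and 11 did not pass. IL1R1, the signalling receptor for interleukin-1, was at 49.5 CPM against 3.78, 2.002 and 1.26 CPM (log2 fold change 4.40 ± 0.64, adjusted p = 0.00678), and its partner IL1RAP at 37.7 CPM against 6.85, 8.87 and 11.9 CPM (log2 fold change 2.03 ± 0.43, adjusted p = 0.0222). LTBR, the lymphotoxin receptor of stromal cells, stood at 25.3 CPM against 1.32, 2.20 and 2.20 CPM (log2 fold change 3.73 ± 0.56, adjusted p = 0.00765). TNFRSF12A, the receptor for TWEAK, was at 157 CPM against 7.15, 19.1 and 28.1 CPM (log2 fold change 3.12 ± 0.63, adjusted p = 0.0194). The fibroblast library lay above every ES line for all 4. IL6ST, the shared gp130 chain, IFNAR1, IL17RC, IL20RA, IL15RA, TNFRSF10B and IL1RL1 rose with log2 fold changes between 2.09 (IL6ST) and 6.34 (IL1RL1). CXCR4, a chemokine receptor, stood at 0.252 CPM against 10.7, 10.5 and 35.1 CPM (log2 fold change -6.20 ± 1.23, adjusted p = 0.0180), and TNFRSF1B, a receptor for tumour necrosis factor, at 0.483 CPM against 13.9, 11.98 and 5.69 CPM (log2 fold change -4.44 ± 0.91, adjusted p = 0.0201). TNFRSF21 was at 65.4 CPM against 73.9, 75.7 and 48.3 CPM and did not pass (log2 fold change -0.01 ± 0.40, adjusted p = 0.987). Of 60 listed ligands, 22 were matched to a symbol. Among these, CXCL14, a chemokine, was the highest in fibroblasts, at 1191 CPM against 2.32, 4.67 and 1.33 CPM (log2 fold change 8.75 ± 0.66, adjusted p = 0.00148). IL33, an alarmin cytokine, had no count in any ES line and 26 reads in fibroblasts, at least 23.5-fold higher (adjusted p = 0.0486). IL18 and IL12A fell, IL18 to 0.945 CPM against 5.67, 6.34 and 7.36 CPM. The median of the list was 1.11. Cytokine and chemokine genes that rose and fell numbered 10 and 0 without No40, 17 and 9 with DESeq2 and 17 and 3 with limma voom. IL1RAP, IFNAR1, IL15RA, CXCR4, TNFRSF1B, IL33, IL18 and IL12A did not pass without No40 (adjusted p = 0.0505 to 0.108). CXCR4 did not pass with limma voom. IL33 did not pass with upper-quartile scaling and with total-count scaling. IL18 did not pass without DSY127 (adjusted p = 0.0838).

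Sensors of microbial patterns and the NF-kB pathway they feed rose in 6 of 36 members and fell in 0, at a median of 0.75. The share called was 16.7%, against 18.1% of all tested genes, of which 8.80% rose and 9.28% fell. DHX58, an RNA helicase of the RIG-I family, stood at 23.5 CPM against 2.62, 1.67 and 2.38 CPM (log2 fold change 3.40 ± 0.54, adjusted p = 0.00915). NLRC5, a regulator of class I antigen presentation genes, was at 14.8 CPM against 0.0609, 0.361 and 0 CPM (log2 fold change 6.74 ± 1.36, adjusted p = 0.0193), and TLR3, a receptor for double-stranded RNA, at 9.01 CPM against 0.447, 0 and 0.183 CPM (log2 fold change 5.36 ± 1.30, adjusted p = 0.0341). The fibroblast library was above every ES line for all 3, and NLRC5 had no count in No20 and TLR3 none in DSY127. The adaptor MYD88, the kinase IRAK1 and NFKB1 rose with log2 fold changes of 1.85, 2.07 and 2.13, while RELA, at 76.6 CPM against 37.6, 30.4 and 31.2 CPM, and NFKBIA, at 31.7 CPM against 34.1, 45.8 and 40.9 CPM, did not pass. Pattern recognition genes that rose and fell numbered 1 and 0 without No40, 8 and 2 with DESeq2 and 3 and 0 with total-count scaling. NLRC5 did not pass with DESeq2. NLRC5, TLR3, MYD88, IRAK1 and NFKB1 did not pass without No40 (adjusted p = 0.0534 to 0.0895). MYD88, IRAK1 and NFKB1 did not pass with total-count scaling. NFKB1 did not pass with upper-quartile scaling.

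Complement, the plasma cascade of innate immunity, fell in 6 of 20 tested members and rose in 3, at a median of -0.57. MASP1, the protease of the lectin pathway, stood at 298 CPM against 2.64, 3.50 and 7.52 CPM (log2 fold change 6.03 ± 0.57, adjusted p = 0.00222). COLEC12, a scavenger receptor collectin, rose to 452 CPM against 31.7, 72.6 and 98.5 CPM (log2 fold change 2.74 ± 0.54, adjusted p = 0.0182). The soluble collectin COLEC11 had 2 reads in fibroblasts and 15.7, 23.4 and 16.5 CPM in the ES lines, a ratio of ES to fibroblasts of 441 (95% interval 122 to 3644), adjusted p = 0.00290. VTN, the adhesion protein vitronectin that also restrains complement, was at 21.7 CPM against 118, 134 and 113 CPM (log2 fold change -2.49 ± 0.40, adjusted p = 0.00922), and CLU, the chaperone clusterin, at 81.4 CPM against 284, 515 and 498 CPM (log2 fold change -2.41 ± 0.50, adjusted p = 0.0206). Fibroblasts were below all 3 ES lines for both. C7, a terminal component, had no count in fibroblasts and 3.43, 1.84 and 3.16 CPM in the ES lines, at least 44.6-fold lower (adjusted p = 0.0108). C5, another, and SERPING1, the inhibitor of the first component, fell with log2 fold changes of -6.03 and -2.11. C5 did not pass with limma voom and without No40 (adjusted p = 0.0680 without No40). SERPING1 did not pass without DSY127 (adjusted p = 0.0519).

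In coagulation and plasminogen activation 7 rose, 2 fell and 23 did not pass of 32, at a median of 0.04 (-0.34 with total-count scaling, -0.22 with upper-quartile scaling). The share called was 28.1%, against 18.1% of all tested genes. The initiating pair of the extrinsic pathway was higher in fibroblasts. F3, tissue factor, stood at 67.1 CPM against 5.26, 9.70 and 7.34 CPM (log2 fold change 3.17 ± 0.46, adjusted p = 0.00693), and F7 at 14.8 CPM against 1.605, 1.81 and 3.32 CPM (log2 fold change 2.72 ± 0.63, adjusted p = 0.0300). F10, the factor they activate, was at 57.1 CPM against 0.163, 0.612 and 0.0686 CPM (log2 fold change 7.69 ± 0.96, adjusted p = 0.00439). All 3 exceeded every ES line. LRP1, a large endocytic receptor that clears protease complexes, stood at 3107 CPM against 619.9, 390.1 and 353 CPM (log2 fold change 2.77 ± 0.37, adjusted p = 0.00536). TFPI2, a Kunitz inhibitor, and THBD, thrombomodulin, rose with log2 fold changes of 1.41 and 3.19. FGG, the fibrinogen gamma chain, had no count in fibroblasts against 3.60, 3.42 and 3.34 CPM, at least 54.8-fold lower (adjusted p = 0.00581). VWF, von Willebrand factor, also fell, at 0.840 CPM against 9.93, 15.4 and 11.5 CPM (log2 fold change -3.86 ± 0.74, adjusted p = 0.0161). Of the plasminogen activators, PLAT was at 177 CPM against 252, 721 and 513 CPM and PLAU at 18.4 CPM against 38.5, 64.7 and 42.7 CPM, below every ES line, and neither passed (adjusted p = 0.143 and 0.0942). Coagulation genes that rose and fell numbered 4 and 2 without No40, 13 and 5 without No20, 10 and 8 with DESeq2 and 4 and 3 with total-count scaling. F7, TFPI2 and THBD did not pass with total-count scaling, without No40 and without DSY127 (adjusted p = 0.0623 to 0.0869 without No40, 0.0548 to 0.0676 without DSY127). TFPI2 and THBD did not pass with upper-quartile scaling. THBD did not pass with RLE scaling.

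Metalloproteinases, which cut matrix and shed surface proteins, moved in both directions: 14 rose, 8 fell and 17 did not pass of 39. MMP14, the membrane-bound collagenase, stood at 989 CPM against 49.1, 52.8 and 32.1 CPM (log2 fold change 4.47 ± 0.36, adjusted p = 0.00158), and MMP2, the gelatinase it activates, at 1236 CPM against 414, 329.5 and 303 CPM (log2 fold change 1.83 ± 0.31, adjusted p = 0.0114). MMP1, interstitial collagenase, was at 22.3 CPM against 0.203, 0.278 and 0.320 CPM (log2 fold change 6.37 ± 0.62, adjusted p = 0.00233). Of the membrane-anchored disintegrin proteases, ADAM12 stood at 246 CPM against 25.9, 20.1 and 29.7 CPM and ADAM15 at 257 CPM against 25.2, 10.9 and 10.4 CPM, with log2 fold changes of 3.29 and 4.05. The fibroblast library was above every ES line for these 5. ADAMTS2, the procollagen N-proteinase, was at 141 CPM against 3.09, 4.73 and 1.05 CPM (log2 fold change 5.58 ± 0.70, adjusted p = 0.00441). Its relatives were split. ADAMTS1, ADAMTS5, ADAMTS6 and ADAMTS10 rose, with log2 fold changes of 2.14 to 4.67. Of those that fell, ADAMTS19 stood at 2.08 CPM against 166, 132 and 108 CPM (log2 fold change -6.02 ± 0.56, adjusted p = 0.00212) and ADAMTS20 at 0.357 CPM against 14.0, 20.8 and 8.57 CPM (log2 fold change -5.32 ± 0.90, adjusted p = 0.0107), both below every ES line. MMP15, a membrane-type relative of MMP14, fell, at 6.20 CPM against 63.7, 107 and 50.4 CPM (log2 fold change -3.57 ± 0.63, adjusted p = 0.0123), as did MMP9, the other gelatinase, at 0.357 CPM against 22.7, 46.8 and 12.7 CPM (log2 fold change -6.25 ± 1.11, adjusted p = 0.0129). MMP14 and MMP2 were thus higher in fibroblasts than in any ES line, and their relatives MMP15 and MMP9 were lower. MMP2 still held 303 to 414 CPM in the ES lines. The inhibitor TIMP1 was at 309 CPM against 28.9, 40.6 and 49.1 CPM (log2 fold change 2.96 ± 0.37, adjusted p = 0.00434). Of the general sheddases, ADAM10 stood at 257 CPM against 348, 215 and 307 CPM and ADAM17 at 154 CPM against 286, 118 and 119 CPM, both within the range of the ES lines, and neither passed. The list's median was 0.96. Metalloproteinase genes that rose and fell numbered 10 and 5 without No40. ADAMTS5, ADAMTS6, ADAMTS10 and MMP9 did not pass without No40 (adjusted p = 0.0508 to 0.128). ADAMTS6 did not pass with upper-quartile scaling. ADAMTS6 and ADAMTS10 did not pass with total-count scaling.

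Integrins are the paired receptors by which cells hold matrix. Of 15 alpha subunits 7 rose, 1 fell and 7 did not pass, and of 8 beta subunits 2 rose, 2 fell and 4 did not pass. ITGA11, a collagen receptor of mesenchyme (chromosome 10, 10830521 to 10994732), was at 642 CPM against 9.85, 12.5 and 8.14 CPM (log2 fold change 5.98 ± 0.36, adjusted p = 0.00119). ITGB3, the partner of the alpha-v subunit ITGAV, stood at 195 CPM against 11.9, 17.2 and 11.7 CPM (log2 fold change 3.84 ± 0.37, adjusted p = 0.00231), and ITGAV at 452 CPM against 127, 97.9 and 111 CPM (log2 fold change 2.02 ± 0.31, adjusted p = 0.00832). ITGA8, another receptor for RGD-bearing matrix, was at 34.4 CPM against 1.95, 0.945 and 0.686 CPM (log2 fold change 4.84 ± 0.67, adjusted p = 0.00593). Each lay above all ES lines, and so did ITGB1, the common beta subunit, at 2741 CPM against 750.3, 650.2 and 915 CPM. ITGA6, the laminin receptor subunit of epithelia, went the other way, at 51.4 CPM against 139, 171 and 195 CPM (log2 fold change -1.71 ± 0.40, adjusted p = 0.0295). ITGB2 and ITGB7, known from leukocytes, also fell: ITGB2 had no count in fibroblasts and 15.6, 17.04 and 7.77 CPM in the ES lines, at least 214-fold lower (adjusted p = 0.00417). The alpha subunit ITGAX stood at 176 CPM per kb in fibroblasts against an ES mean of 372 CPM per kb and did not pass. Whether reads of another gene were counted for ITGAX was not tested. PTPRC, the pan-leukocyte marker CD45, stood at 0.0840 CPM against 0, 0.0556 and 0.183 CPM. Blood and macrophage markers together, PTPRC among them, summed to 3.17 CPM in fibroblasts and 4.07 to 7.11 CPM in the ES lines, and their part in the ITGB2 level was not tested. ITGA1, ITGA4, ITGA5 and ITGA9 rose as well, and the list's median was 0.63. Integrin genes that rose and fell numbered 7 and 1 without No40, 10 and 7 without No20 and 9 and 6 with DESeq2. ITGA6, ITGB7, ITGA5 and ITGA9 did not pass without No40 (adjusted p = 0.0507 to 0.0552). ITGA6 did not pass without DSY127 (adjusted p = 0.0733). ITGA5 and ITGA9 did not pass with upper-quartile scaling and with total-count scaling.

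Tetraspanins, membrane proteins that organise integrins and vesicles, rose in 6 and fell in 6 of 22 tested members, at a median of 0.67. TSPAN11 was at 292 CPM against 0.244, 0.0556 and 0.137 CPM (log2 fold change 10.88 ± 0.59, adjusted p = 0.00119) and TSPAN5 at 49.2 CPM against 3.19, 3.50 and 3.48 CPM (log2 fold change 3.86 ± 0.43, adjusted p = 0.00307). UPK1B, a uroplakin of bladder epithelium, rose to 6.15 CPM against 0.264, 0.417 and 0.480 CPM (log2 fold change 3.98 ± 0.72, adjusted p = 0.0138). TSPAN15 stood at 1.09 CPM against 59.6, 54.9 and 26.7 CPM (log2 fold change -5.42 ± 0.75, adjusted p = 0.00590) and TSPAN33 at 0.840 CPM against 19.2, 19.1 and 13.9 CPM (log2 fold change -4.37 ± 0.66, adjusted p = 0.00783). TSPAN5, TSPAN15 and TSPAN33 belong to the tetraspanins known to escort the sheddase ADAM10: the first lay above and the other two below every ES line. CD82 fell, at 6.15 CPM against 63.8, 66.6 and 159 CPM, with a log2 fold change of -3.97. Of the widely expressed members, CD9 was at 159.6 CPM against 109, 80.1 and 103 CPM and CD151 at 182 CPM against 184, 165 and 169 CPM, and neither passed. Tetraspanin genes that rose and fell numbered 3 and 4 without No40. UPK1B did not pass without No40 (adjusted p = 0.0529).

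Surface antigens used to tell mesenchymal from other cells rose in 15 of 31 and fell in 7, at a median of 2.30. TNC, the matrix protein tenascin-C listed with them, stood at 5261 CPM against 68.8, 102 and 58.5 CPM (log2 fold change 6.10 ± 0.38, adjusted p = 0.00119). CD248, the stromal antigen endosialin, was at 316 CPM against 4.20, 6.31 and 9.44 CPM (log2 fold change 5.57 ± 0.46, adjusted p = 0.00171), and NT5E, the ectonucleotidase CD73, at 245 CPM against 22.4, 22.9 and 21.4 CPM (log2 fold change 3.46 ± 0.31, adjusted p = 0.00199). ALCAM, the adhesion molecule CD166, reached 1139.6 CPM against 7.96, 17.3 and 26.3 CPM (log2 fold change 6.05 ± 0.58, adjusted p = 0.00233). GPNMB, a lysosomal and surface glycoprotein, ANTXR2, a receptor for matrix and anthrax toxin, and NCAM1 rose with log2 fold changes of 5.76, 3.43 and 3.47. Some antigens often called mesenchymal were instead higher in the ES lines. PDPN, podoplanin, stood at 17.4 CPM against 320.5, 612 and 210.1 CPM (log2 fold change -4.46 ± 0.78, adjusted p = 0.0121), and VCAM1 at 0.882 CPM against 19.1, 12.1 and 15.96 CPM (log2 fold change -4.15 ± 0.71, adjusted p = 0.0111). CDCP1, an epithelial and stem cell antigen, was at 0.630 CPM against 83.1, 46.9 and 33.0 CPM (log2 fold change -6.42 ± 0.85, adjusted p = 0.00515). ANPEP, the peptidase CD13, stood at 3.89 CPM against 214, 408 and 39.6 CPM (log2 fold change -5.83 ± 1.48, adjusted p = 0.0388), with the ES lines about 10-fold apart and all above the fibroblasts. MCAM and PROM1 fell too. ANPEP and MCAM did not pass with limma voom and without No40 (adjusted p = 0.100 to 0.110 without No40).

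**Figure D4:**
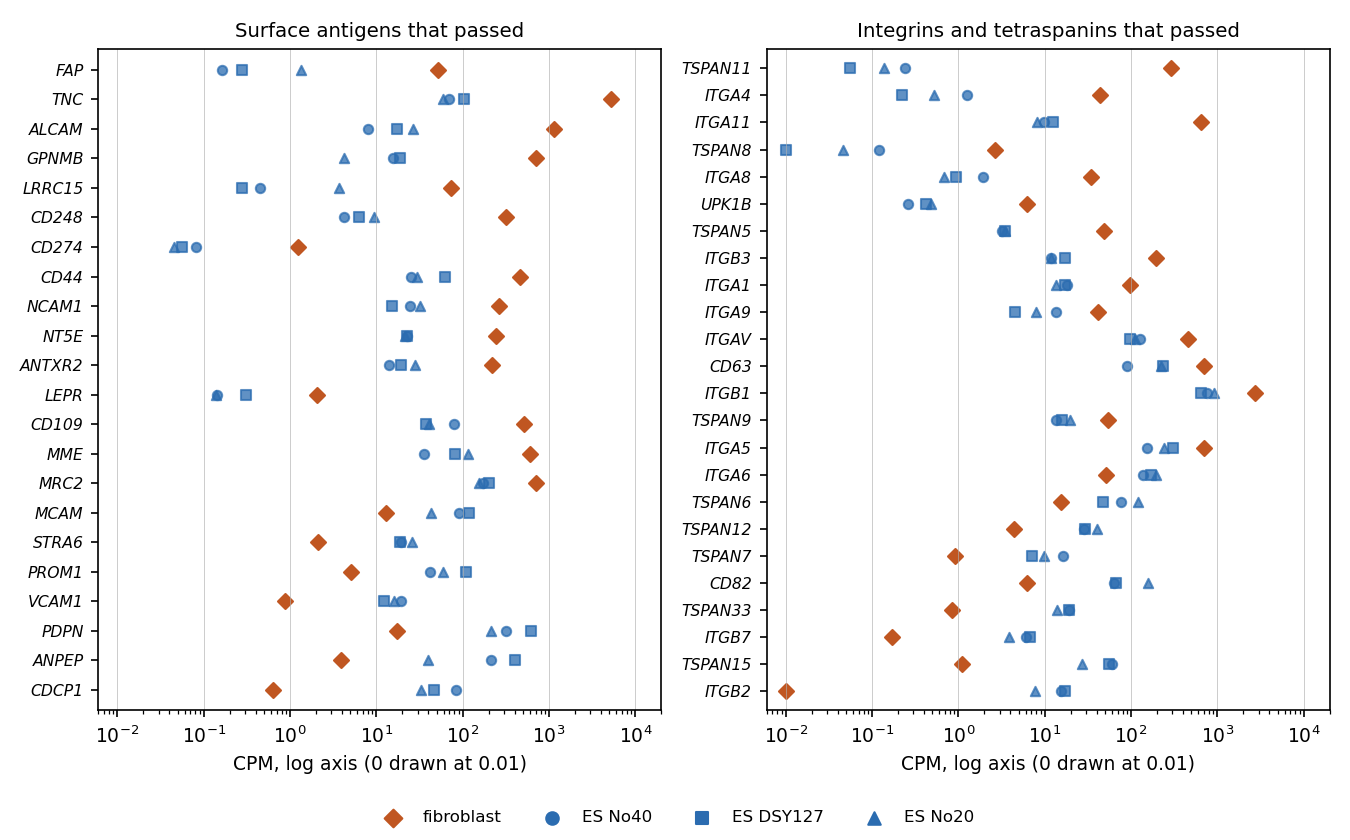
CPM on a log axis of the surface antigens (left) and the integrins and tetraspanins (right) that rose or fell, ordered by log2 fold change; diamonds mark the fibroblast library, other symbols the 3 ES lines, and a level of 0 is drawn at 0.01. In each row the diamond lies outside the range of the ES lines, to the right for genes that rose and to the left for genes that fell; TSPAN11 tops the right panel and ITGB2, with no fibroblast count, closes it.

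Axon guidance molecules, which also steer cells outside the nervous system, rose in 10 and fell in 15 of 67, at a median of -0.19. NRP1, the receptor shared by class 3 semaphorins and VEGF, was at 317 CPM against 6.76, 7.42 and 7.89 CPM (log2 fold change 5.43 ± 0.32, adjusted p = 0.00119). SLIT3, a secreted ligand for ROBO receptors, stood at 341 CPM against 14.7, 18.0 and 14.6 CPM (log2 fold change 4.43 ± 0.32, adjusted p = 0.00143), and PLXNC1, a semaphorin receptor, at 46.3 CPM against 1.22, 1.39 and 0.823 CPM (log2 fold change 5.34 ± 0.52, adjusted p = 0.00233). These 3 were far above every ES line. The secreted semaphorins SEMA3C and SEMA3D rose, with log2 fold changes of 2.75 and 3.18, and the membrane-bound SEMA5B and SEMA6A fell, with -5.84 and -4.56. SEMA5B was at 0.672 CPM against 35.4, 43.2 and 37.2 CPM, the 3 ES lines lying close together. EPHA1, an ephrin receptor kinase of epithelia (chromosome 8, 102773362 to 102791700), stood at 0.0840 CPM against 77.9, 66.0 and 136 CPM (log2 fold change -10.06 ± 0.92, adjusted p = 0.00199), with 4 reads in fibroblasts. EPHA8, EPHA10 and EPHB1 fell as well, and EPHA3 rose, at 6.91 CPM against 0.427, 0.667 and 1.33 CPM. EPHA2 was at 89.2 CPM against 86.8, 96.5 and 133 CPM and EPHB4 at 174 CPM against 116, 132 and 146 CPM, and neither passed. EPHB2 fell, at 19.0 CPM against 64.3, 73.4 and 51.3 CPM, and the ligand EFNB2 rose, at 161 CPM against 36.5, 62.95 and 53.9 CPM, with log2 fold changes of -1.73 and 1.66. PLXNB2, a plexin, stood at 356 CPM against 281, 186 and 146 CPM and did not pass (log2 fold change 0.80 ± 0.42, adjusted p = 0.228). NEO1, a receptor for netrins and repulsive guidance molecules, was at 248 CPM against 145, 132 and 128 CPM and did not pass (log2 fold change 0.88 ± 0.31, adjusted p = 0.0969), though it was above every ES line. Axon guidance genes that rose and fell numbered 6 and 7 without No40, 17 and 19 without No20 and 11 and 9 with limma voom. EPHA8, EPHB1, EPHA3, EPHB2 and EFNB2 did not pass without No40 (adjusted p = 0.0519 to 0.106). EPHA10 and EPHB1 did not pass with limma voom. EPHA3 and EFNB2 did not pass with upper-quartile scaling and with total-count scaling. EPHA3 and EPHB2 did not pass without DSY127 (adjusted p = 0.0750 to 0.0939).

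Cadherins bind like cells to like. Of 36 tested, 9 rose, 5 fell and 22 did not pass. CDH3, P-cadherin, stood at 1.68 CPM against 314, 532 and 405 CPM (log2 fold change -7.95 ± 0.64, adjusted p = 0.00158), and PCDH1, a protocadherin of epithelia, at 1.74 CPM against 106, 147 and 82.7 CPM (log2 fold change -6.00 ± 0.62, adjusted p = 0.00280). CDH13, a cadherin anchored by a lipid tail, was at 767 CPM against 12.8, 17.7 and 8.39 CPM (log2 fold change 5.89 ± 0.44, adjusted p = 0.00148), and CDH6 at 222 CPM against 18.6, 29.8 and 21.3 CPM (log2 fold change 3.26 ± 0.37, adjusted p = 0.00334). PCDH10 stood at 30.4 CPM against 0.203, 0.167 and 0.0915 CPM (log2 fold change 7.59 ± 0.65, adjusted p = 0.00188). Fibroblasts were below every ES line for CDH3 and PCDH1 and above every ES line for the other 3. CDH11, the cadherin of mesenchyme, was at 1056 CPM against 50.7, 84.5 and 252 CPM (log2 fold change 3.03 ± 0.74, adjusted p = 0.0342), and CDH2, N-cadherin, at 292 CPM against 31.2, 46.8 and 159 CPM without passing (log2 fold change 1.89 ± 0.78, adjusted p = 0.143). For both genes No20 was the highest ES line. The giant cadherin FAT4 rose, at 200.3 CPM against 3.53, 3.98 and 13.2 CPM (log2 fold change 4.86 ± 0.71, adjusted p = 0.00707), as did its ligand DCHS1, at 209.6 CPM against 44.6, 48.4 and 39.6 CPM (log2 fold change 2.25 ± 0.31, adjusted p = 0.00616). CELSR2, a planar polarity cadherin, fell with a log2 fold change of -4.07. Gap junction genes, of which 8 were tested, included 2 that fell, GJB2 and GJA4, neither with a count in fibroblasts. GJB2 had 1.18, 2.59 and 1.10 CPM in the ES lines and GJA4 had 0.691, 0.945 and 0.320 CPM. Cadherin and gap junction genes that rose and fell numbered 7 and 4 without No40 and 10 and 12 with DESeq2. Gap junction genes that rose and fell numbered 0 and 0 without No40, 0 and 4 with DESeq2 and 0 and 0 with limma voom. CDH11 did not pass with total-count scaling. CDH11, GJB2 and GJA4 did not pass without No40 (adjusted p = 0.0570 to 0.109). GJB2 and GJA4 did not pass with limma voom. GJA4 did not pass without DSY127 (adjusted p = 0.0776).

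Heparan sulfate proteoglycans and hyaluronan tune growth factor binding at the surface. SULF1, a sulfatase that trims heparan sulfate, stood at 1114 CPM against 17.8, 10.1 and 7.98 CPM (log2 fold change 6.54 ± 0.48, adjusted p = 0.00143), and its relative SULF2 at 716 CPM against 61.8, 82.6 and 178 CPM (log2 fold change 2.74 ± 0.54, adjusted p = 0.0180). SDC2, the syndecan of mesenchymal cells, was at 934 CPM against 35.5, 36.7 and 52.4 CPM (log2 fold change 4.49 ± 0.34, adjusted p = 0.00150). GPC3, a glypican, ran against it, at 17.9 CPM against 80.9, 112 and 51.0 CPM (log2 fold change -2.18 ± 0.56, adjusted p = 0.0398). HAS3, a hyaluronan synthase, stood at 5.17 CPM against 66.1, 102 and 119 CPM (log2 fold change -4.21 ± 0.57, adjusted p = 0.00531), and CEMIP, which degrades hyaluronan, at 639 CPM against 18.3, 5.45 and 4.37 CPM (log2 fold change 6.09 ± 0.75, adjusted p = 0.00425). The synthase was thus lower and the degrading protein higher in fibroblasts than in any ES line, and TNFAIP6, which modifies hyaluronan, rose to 39.2 CPM against 0.366, 0.0556 and 0.320 CPM (log2 fold change 7.26 ± 0.83, adjusted p = 0.00347). HPSE, heparanase, had no count in fibroblasts and 1.30, 1.20 and 0.366 CPM in the ES lines, at least 15.1-fold lower (adjusted p = 0.0396). GPC2, a second glypican, fell, at 0.147 CPM against 9.89, 2.34 and 3.45 CPM (log2 fold change -5.12 ± 1.35, adjusted p = 0.0436). Of the polymerase genes, EXT1 was at 85.9 CPM against 37.4, 67.1 and 85.1 CPM and EXT2 at 298 CPM against 161, 171 and 113 CPM, and neither passed. Over 34 tested members 6 rose, 5 fell and 23 did not pass, at a median of 0.46. Heparan sulfate and hyaluronan genes that rose and fell numbered 5 and 1 without No40, 6 and 2 without DSY127 and 7 and 1 with limma voom. SULF2, GPC3, HPSE and GPC2 did not pass without No40 (adjusted p = 0.0572 to 0.0997). GPC3, HPSE and GPC2 did not pass with limma voom. GPC3 and HPSE did not pass without DSY127 (adjusted p = 0.0544 to 0.0607).

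Enzymes that build the outer sugars of glycoproteins and glycolipids fell in 11 of 32 and rose in 3, at a median of -0.30. UGT8, which makes galactosylceramide, stood at 0.168 CPM against 51.3, 33.3 and 40.1 CPM (log2 fold change -7.92 ± 0.72, adjusted p = 0.00199). B3GALT5, which extends the globo-series chains on which the stage-specific embryonic antigens are built, had no count in fibroblasts and 5.38, 4.78 and 4.32 CPM in the ES lines, at least 76.6-fold lower (adjusted p = 0.00502). B3GNT7, which extends keratan sulfate chains, also had no count in fibroblasts and 19.9, 25.6 and 34.6 CPM in the ES lines, at least 424-fold lower (adjusted p = 0.00212). CHST4, a sulfotransferase acting on N-acetylglucosamine, had none in fibroblasts and 8.63, 12.1 and 4.92 CPM in the ES lines, at least 136-fold lower (adjusted p = 0.00581). The 3 ES lines all held these transcripts. B4GALNT4, which adds N-acetylgalactosamine, was at 0.945 CPM against 56.7, 53.1 and 31.8 CPM (log2 fold change -5.64 ± 0.67, adjusted p = 0.00390). Sialyltransferases supplied the 3 rises: ST3GAL5, the synthase of ganglioside GM3, stood at 128 CPM against 9.91, 11.2 and 16.6 CPM (log2 fold change 3.35 ± 0.41, adjusted p = 0.00411), ST3GAL4 at 69.1 CPM against 11.6, 12.5 and 13.7 CPM (log2 fold change 2.46 ± 0.38, adjusted p = 0.00813) and ST6GALNAC2 at 30.0 CPM against 1.63, 1.45 and 0.434 CPM (log2 fold change 4.68 ± 0.74, adjusted p = 0.00903). FUT8, the core fucosyltransferase, was at 96.5 CPM against 140.4, 97.1 and 123 CPM and did not pass. Glycan enzyme genes that rose and fell numbered 3 and 6 without No40, 5 and 14 without No20, 6 and 13 with DESeq2 and 4 and 6 with limma voom.

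Of 27 tested genes of prostaglandin and lysophospholipid signalling, lipid mediators that act on neighbouring cells, 7 rose, 1 fell and 19 did not pass, at a median of 0.59. The share called was 29.6%, against 18.1% of all tested genes. PTGS2, the inducible cyclooxygenase, stood at 37.3 CPM against 0.975, 4.23 and 2.33 CPM (log2 fold change 3.89 ± 0.74, adjusted p = 0.0161). PTGER4, a receptor for its product prostaglandin E2, was at 19.5 CPM against 1.42, 0.862 and 1.51 CPM (log2 fold change 3.94 ± 0.59, adjusted p = 0.00773), and PTGER3, another, at 0.588 CPM against 9.49, 4.03 and 8.23 CPM (log2 fold change -3.62 ± 0.90, adjusted p = 0.0373). PTGER4 was thus higher in fibroblasts than in any ES line, and PTGER3 was higher in every ES line, though at 4.03 to 9.49 CPM. LPAR1, a receptor for lysophosphatidic acid, stood at 94.1 CPM against 5.30, 5.95 and 10.98 CPM (log2 fold change 3.67 ± 0.48, adjusted p = 0.00514), and PLPP1, which degrades that lipid, at 43.1 CPM against 3.25, 5.98 and 2.95 CPM (log2 fold change 3.41 ± 0.54, adjusted p = 0.00899). PTGER3 did not pass with limma voom and without No40 (adjusted p = 0.0993 without No40).

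Retinoid genes, which make and read the vitamin A derivative retinoic acid, rose in 7 and fell in 2 of 20, at a median of 0.69. ALDH1A3, which makes retinoic acid, was at 165 CPM against 8.31, 9.84 and 12.6 CPM (log2 fold change 4.01 ± 0.37, adjusted p = 0.00212). CYP26A1, which degrades it, stood at 0.315 CPM against 10.01, 61.0 and 147 CPM (log2 fold change -7.83 ± 1.90, adjusted p = 0.0337), and the ES lines spread more than 10-fold among themselves. RBP4, the retinol carrier, was at 99.2 CPM against 6.62, 13.3 and 6.08 CPM (log2 fold change 3.52 ± 0.51, adjusted p = 0.00678), and STRA6, its receptor, at 2.10 CPM against 19.0, 18.8 and 25.95 CPM (log2 fold change -3.34 ± 0.60, adjusted p = 0.0136). In fibroblasts ALDH1A3 and RBP4 were above every ES line, and CYP26A1 and STRA6 were below every one. Of all 12 tested genes of retinoid uptake and enzymes, 3 rose, 2 fell and 7 did not pass. Of the nuclear receptors, RXRB stood at 94.8 CPM against 23.4, 21.0 and 28.3 CPM (log2 fold change 1.97 ± 0.36, adjusted p = 0.0138), and RARG was at 97.9 CPM against 126, 124 and 122 CPM and did not pass (log2 fold change -0.35 ± 0.33, adjusted p = 0.505). Retinoid genes that rose and fell numbered 3 and 2 without No40, 4 and 2 with total-count scaling and 4 and 2 with upper-quartile scaling. CYP26A1 did not pass with limma voom.

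Lysosomal genes rose in 11 of 22 and fell in 1, at a median of 1.35. CTSK, the collagen-degrading cathepsin K, stood at 216 CPM against 3.05, 4.28 and 5.03 CPM (log2 fold change 5.71 ± 0.40, adjusted p = 0.00142). CTSA, a carboxypeptidase, was at 641 CPM against 86.3, 122 and 99.7 CPM (log2 fold change 2.64 ± 0.32, adjusted p = 0.00411), and TPP1, a tripeptidyl peptidase, at 251 CPM against 58.0, 52.6 and 45.4 CPM (log2 fold change 2.27 ± 0.32, adjusted p = 0.00605). CTSB, cathepsin B, stood at 659.5 CPM against 90.4, 109 and 164 CPM (log2 fold change 2.44 ± 0.38, adjusted p = 0.00884). All 4 lay above every ES line. LAMP1, LAMP2 and NPC2 rose with log2 fold changes of 1.81, 1.72 and 1.44. One cathepsin went against the list: CTSC, dipeptidyl peptidase 1, which activates serine proteases of granules (chromosome 11, 49524379 to 49568643), was at 2.29 CPM against 255, 260.1 and 261 CPM (log2 fold change -6.82 ± 0.48, adjusted p = 0.00143). Its ES values lay close together and far above the fibroblast library. CST3, the cathepsin inhibitor cystatin C, stood at 58.8 CPM against 235, 494 and 136 CPM and did not pass (log2 fold change -2.29 ± 0.77, adjusted p = 0.0871). Lysosomal genes that rose and fell numbered 7 and 1 without No40 and 7 and 1 with total-count scaling. LAMP2 and NPC2 did not pass with total-count scaling. NPC2 did not pass without No40 and without DSY127 (adjusted p = 0.0562 without No40, 0.0544 without DSY127).

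Serine, glycine and one-carbon metabolism feeds nucleotide synthesis and methylation. Of its 27 tested genes 1 rose, 4 fell and 22 did not pass, so that 18.5% were called against 18.1% of all genes tested, at a median of -0.05. The falls included genes of glycine cleavage and of the route from homocysteine to cysteine. GLDC, the glycine decarboxylase, was at 2.73 CPM against 211, 211 and 55.5 CPM (log2 fold change -5.87 ± 1.04, adjusted p = 0.0127), and CBS, cystathionine beta-synthase, at 6.15 CPM against 87.2, 207 and 135 CPM (log2 fold change -4.54 ± 0.69, adjusted p = 0.00774). CTH, the enzyme after CBS, fell with a log2 fold change of -2.50. ALDH1L2, a mitochondrial folate enzyme, rose to 165 CPM against 7.62, 10.6 and 29.5 CPM (log2 fold change 3.37 ± 0.68, adjusted p = 0.0187). PHGDH, the first enzyme of serine synthesis, stood at 602 CPM against 289, 347 and 317 CPM and did not pass. SHMT2, a mitochondrial serine hydroxymethyltransferase, was at 242 CPM against 124, 214 and 274 CPM and did not pass. Fibroblasts were above every ES line for PHGDH and within their range for SHMT2. Of 4 tested genes of caveolae, the membrane pits rich in fibroblasts, EHD2 rose, at 201 CPM against 22.6, 15.04 and 11.6 CPM (log2 fold change 3.61 ± 0.42, adjusted p = 0.00363), and PACSIN2, at 77.6 CPM against 77.8, 69.8 and 57.6 CPM, did not pass. GLDC and ALDH1L2 did not pass without No40 (adjusted p = 0.0518 to 0.0608). CTH did not pass with limma voom.

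Ion channels fell in 23 of 83 tested members and rose in 10, at a median of -1.51 (-1.38 with genes at 0 set to their bound), and 44 of the 83 lay below all ES lines (39.0% of all tested genes did). PIEZO1, the mechanically gated channel, stood at 509.5 CPM against 79.3, 75.9 and 93.3 CPM (log2 fold change 2.62 ± 0.30, adjusted p = 0.00355). CACNA2D1, an accessory calcium channel subunit, was at 55.6 CPM against 5.42, 4.98 and 4.50 CPM (log2 fold change 3.48 ± 0.41, adjusted p = 0.00388), and KCNMA1, the large-conductance potassium channel, at 91.8 CPM against 1.22, 2.61 and 4.596 CPM (log2 fold change 5.03 ± 0.66, adjusted p = 0.00503). Each exceeded every ES line. TRPA1, the irritant-gated channel of sensory neurons, had no count in fibroblasts and 14.1, 17.9 and 16.97 CPM in the ES lines, at least 259-fold lower (adjusted p = 0.00233). HTR3A, a serotonin-gated channel, had no count in fibroblasts and 30.0, 40.6 and 32.4 CPM in the ES lines, at least 545-fold lower (adjusted p = 0.00155). SCNN1A, the epithelial sodium channel subunit, stood at 3.84 CPM against 75.4, 62.2 and 61.2 CPM (log2 fold change -4.11 ± 0.48, adjusted p = 0.00355), and CACNA1H, a low-voltage calcium channel, at 0.399 CPM against 96.4, 46.6 and 27.6 CPM (log2 fold change -7.14 ± 1.07, adjusted p = 0.00765). The 3 ES lines held all 4 of these channel transcripts. Ion channel genes that rose and fell numbered 7 and 11 without No40 and 12 and 13 with limma voom.

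Levels of different genes were compared per kb of gene length, within families, as each member's share of the family's summed CPM per kb. Only members matched to a symbol entered these sums, 7 of 14 listed for the family of IGFBP2. In the growth factor ligands MDK held 82.9% to 88.6% of the ES totals and 32.5% in fibroblasts, where VEGFB, GAS6 and VEGFA held 18.0%, 12.7% and 12.1%. The gene model of MDK is 363 bases long, which raises its value per kb. In CPM, MDK was below GAS6 and VEGFA in fibroblasts. GDF3 led the TGF-beta family ligands in No40 and DSY127 with 67.0% and 85.7%, and NODAL led in No20 with 32.6%. TGFB1 led in fibroblasts with 39.4%. The leading ligand thus differed between ES lines as well as from the fibroblasts. Among receptor tyrosine kinases AXL and PDGFRA led in fibroblasts with 28.1% and 21.6%, ERBB2 led in No40 and DSY127 with 22.2% and 28.2%, and ERBB3 led in No20 with 19.3%. CDH11 and CDH13 led the cadherins of fibroblasts with 33.7% and 24.1%, and CDH1 or CDH3 those of each ES line. SDC2 held 57.7% of heparan sulfate core proteins in fibroblasts and at most 7.43% in an ES line, where AGRN led with 31.3% to 42.0%. Some families kept their leader in all 4 libraries: IGFBP2 held 78.7% of its family in fibroblasts and 87.4% to 90.2% in the ES lines, ITGB1 81.5% and 62.6% to 78.7%, and FGFR1 74.1% and 49.97% to 60.9%. ITGAX led the integrin alpha subunits of every library, with 28.2% in fibroblasts and 66.8% to 78.8% in the ES lines. Whether reads of another gene were counted for ITGAX was not tested, and its level lowers the shares of the other alpha subunits. These shares carry no test.

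**Figure D5:**
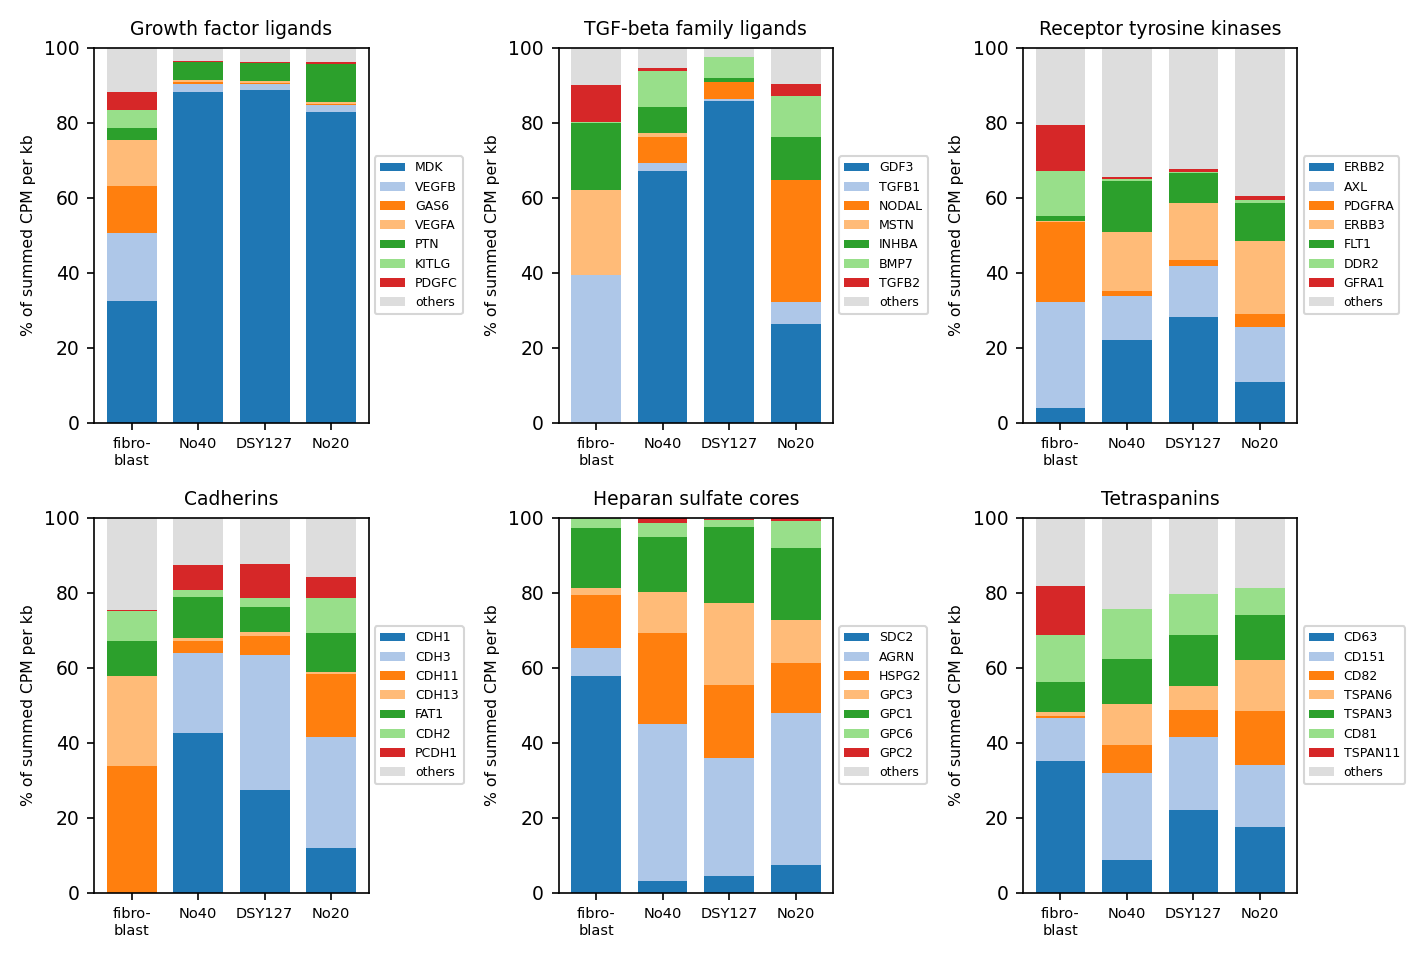
Stacked bars of each member's share, in percent, of the summed CPM per kb of its family, for the fibroblast library and the 3 ES lines; the 7 members with the highest share in any library are coloured and the rest are grey. MDK fills most of the ES bars of the growth factor ligands and under 33% of the fibroblast bar, and the fibroblast bars of cadherins and heparan sulfate cores are led by CDH11 and SDC2, which hold at most 16.8% and 7.43% in an ES line.

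Markers of other cells were read beside these results. Endothelial markers summed to 8.80 CPM in fibroblasts and 311 to 469 CPM in the ES lines, and 5 of 10 fell, among them ESAM at 0.441 CPM against 14.8, 49.0 and 41.3 CPM. Blood and macrophage markers summed to 3.17 CPM in fibroblasts and 4.07 to 7.11 CPM in the ES lines, with CD3E at 0 in fibroblasts and CD163, at 1.01 CPM against 0.0406, 0 and 0 CPM, the 1 that rose. Keratinocyte markers summed to 0.609 CPM in fibroblasts and 1.89 to 2.58 CPM in the ES lines, with KRT14 and DSG3 at 0 in fibroblasts. Melanocyte and Schwann cell markers summed to 13.04 CPM in fibroblasts and 37.7 to 63.6 CPM in the ES lines, and 0 rose, 3 fell and 2 did not pass of 5 tested, with DCT at 0 in fibroblasts. Of 7 tested muscle markers 6 rose, 0 fell and 1 did not pass, and they summed to 7137 CPM in fibroblasts and 251 to 1005 CPM in the ES lines. Muscle marker genes that rose and fell numbered 3 and 0 without No40. ACTA2, smooth muscle actin, was at 2733 CPM against 21.8, 52.1 and 12.2 CPM (log2 fold change 6.57 ± 0.71, adjusted p = 0.00300), and is known to be expressed by activated fibroblasts as well. Of the factors that define skeletal muscle precursors, MYOG stood at 2.10 CPM against 0, 0 and 0.0686 CPM and MYOD1 at 1.28 CPM against 0.0406, 0.111 and 0.0457 CPM, while MYF5 was at 0 in fibroblasts. Their part in the rise of MSTN and MYOCD was not tested. Adipocyte and cartilage markers summed to 58.6 CPM in fibroblasts and 5.76 to 18.9 CPM in the ES lines. PPARG, the adipocyte regulator, was at 51.5 CPM against 0.914, 3.03 and 0.206 CPM (log2 fold change 5.22 ± 1.08, adjusted p = 0.0209), and PLIN1, which coats fat droplets, at 0.546 CPM against 0.223, 0.417 and 0.0915 CPM. Neural markers summed to 563 CPM in fibroblasts and 539 to 1099 CPM in the ES lines. Of 6 tested neural markers 1 rose, 1 fell and 4 did not pass. NES fell, at 43.1 CPM against 551, 741 and 269.7 CPM, and PAX6 rose, at 11.97 CPM against 0.609, 0.918 and 2.10 CPM. Most of the neural sum in fibroblasts came from other markers of the list. CD163, MYOG, MYOD1, PPARG, NES and PAX6 did not pass without No40 (adjusted p = 0.0611 to 0.0987). MYOD1 and MSTN did not pass with DESeq2. MSTN did not pass with upper-quartile scaling and with total-count scaling.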

How the data were processed

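Total RNA was extracted with an RNeasy kit and sequenced as Illumina libraries, per the labels' protocols. The values the authors deposited are raw counts of reads for each gene, without normalization, and the series table holds the same counts as the single files. The read trimmer Trim Galore 0.4.0, the aligner STAR 2.5.3a and the counter featureCounts 1.5.2 are listed without order, per the submitters' processing notes. Not given in the sources used here are the genome build and the counting settings for strand and multi-mapping reads. Paralogs, pseudogene copies, overlapping genes and antisense partners may therefore share reads. Coordinates are those of the files, 1-based.

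Symbols matched 12660 of 30811 identifiers (41.1%), and 7 duplicated symbols were left out of lists. Of the 3157 genes called, 847 have no symbol and are not named. In R 4.3.3 with edgeR 4.0.16, all 5 libraries entered 1 quasi-likelihood fit (filterByExpr, TMM, estimateDisp, glmQLFit, glmQLFTest), with the fibroblast library against the ES lines as contrast, Benjamini-Hochberg adjustment over 17462 genes and a threshold of 0.05. The common biological coefficient of variation was 0.458. A count of 3 equals 0.0630 CPM in the fibroblast library. The standard error is the size of the log2 fold change divided by the square root of the F statistic.

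The members and lists were chosen with earlier results of these data known. Named genes are up to 3 called members of each list and direction with the smallest adjusted p at 5 CPM or more, the 15 largest changes per direction outside the lists at 50 CPM or more, up to 2 uncalled ligands or receptors per list at 50 CPM or more in both groups, and 4 label checks, 166 in all. Another 169 members, as examples, were chosen after their values were seen. Some of these genes are not reported here. On simulated counts (17007 genes), the same steps recovered 29% of 4-fold and 85% of 16-fold changes, with 18 false calls. Counts of every library were drawn there from the ES means, and far fewer genes were changed than were called here. The false share of the reported calls was therefore not measured. The 11 alternatives were DESeq2 1.42.0, voom in limma 3.58.1, scaling by RLE factors, by upper quartiles or by total counts, either no filter or a filter of 1 CPM in at least 1 library, a fit of the 4 libraries compared, and each ES line left out. Sequences were not used here.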

Additional observations from a re-analysis of the deposited data

How the results depend on the processing

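Of 1537 risen and 1620 fallen genes in the comparison as reported, DESeq2 gave 2044 and 2703 and limma voom 1674 and 1009. Leaving out 1 ES line gave 924 to 2184 rises and 818 to 2366 falls, the lowest without No40 and the highest without No20, with 1 residual degree of freedom in each. Total counts alone gave 1066 and 2016, upper-quartile factors 1201 and 1859, RLE factors 1562 and 1599, no low-count filter 1761 and 2002, the 1 CPM filter 1552 and 1655, and the 4 libraries alone 1562 and 1612. Unadjusted p under 0.05 held for 2744 rises and 3188 falls. Of the 335 genes chosen to be named, 0 changed sign where called. Calls ended for 69 genes without No40, 15 without DSY127, 0 without No20, 27 with limma voom, 22 with total counts alone, 14 with upper-quartile factors, 3 with DESeq2 and 1 with RLE factors. Calls were gained for 17 genes with DESeq2, 11 without No20, 8 with no low-count filter and 5 with total counts alone. Without No40 and with upper-quartile factors 4 and 2 were gained. Gained calls are listed by gene only for IGF1R and FLT1. The text gives list counts under an alternative where they moved by over 1.5 times and by more than 1 gene. No paired analysis was possible because the labels give no replicate numbers and there is 1 fibroblast library. Depth limits low genes: a gene under 0.0630 CPM in fibroblasts had under 3 reads there. How fibroblast cultures vary among themselves was not measured, and the ES lines were the sole source of error.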
